A study of Arabidopsis thaliana with 8 samples.

Results

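Ribosomal protein genes stood slightly higher in *ubp5* seedlings than in the wild type. Of the 17 nucleolar and RNA polymerase genes beside them, 15 also had a log2 fold change above 0, with a median of 0.15. Among all genes tested, 48.4% were above 0. All 23 cytosolic ribosomal protein genes followed here had a log2 fold change above 0, from 0.15 to 0.43 with a median of 0.27, yet RPL5B (AT5G39740) was the only one of them that passed the test over all genes. Of the 17, NUC2 (AT3G18610), the minor of the nucleolin genes, and NRPC1 (AT5G60040), the largest subunit of RNA polymerase III, rose more than 2-fold. NUC2 had only 2 to 10 counts per Col-0 library and entered the test only through its counts in *ubp5*. NUC1, the fibrillarin genes, the HD2 histone deacetylases, the rRNA processing factors and the RNA polymerase I subunits did not pass.

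The 40 genes are a fixed list of identifiers among the 37336 genes that each library lists. They comprise 8 genes for proteins of the 40S subunit, 15 for proteins of the 60S subunit, 2 nucleolins, 4 proteins of the box C/D snoRNP, 3 nucleolar HD2 histone deacetylases, 5 pre-rRNA processing factors and 3 subunits of RNA polymerase I or III. All 40 were found in the count tables, and all 40 passed the filter on low counts that left 15649 genes for testing. Positions are those of RefSeq for TAIR10.1. Names are common ones and in part differ from the RefSeq symbols, such as RPS6B for EMB3010. A gene without such a name is given by its identifier.

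RNA was taken from whole seedlings of *Arabidopsis thaliana*, 12 days after germination on MS medium in long days. The 2 groups were the wild type Col-0 and *ubp5*, a CRISPR/Cas9 line in the same Col-0 background that lacks part of UBP5, a ubiquitin-specific protease, with 4 biological replicates each and no further treatment. The mutant is represented by a single deletion line, and a seedling mixes root, shoot and leaf cells, so that fewer cells of a type and less RNA per cell cannot be told apart. In 3' RNA-seq each poly(A) RNA gives a tag near its 3' end, and the deposited values are counts of distinct molecular tags per gene.

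Library totals were 2572842 to 2997743 counts in Col-0 against 1440510 to 2595285 in *ubp5*. Levels are given as CPM, the counts scaled to a common library size, after TMM scaling, and differences as log2 fold changes of *ubp5* over Col-0 with their standard errors (SE). A gene passed when the p-value of edgeR's quasi-likelihood test, adjusted over all genes tested by the Benjamini-Hochberg method, was under 0.05, and was called when it also changed at least 2-fold. The UBP5 transcript itself fell from 17.4 ± 4.33 to 5.89 ± 1.53 CPM (SD, n = 4), with an adjusted p of 0.00236. This is a limited check of the labels, because the tags lie at the 3' end, outside the deleted stretch.

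Ribosomes are put together in the nucleolus. RNA polymerase I transcribes the large rRNA precursor there, fibrillarin with NOP56 and NOP58 methylates it under guidance of box C/D snoRNAs, and factors such as pescadillo and BRX1 help to build the large subunit from it. RNA polymerase III supplies the small rRNA of that subunit. Ribosomal proteins are made in the cytosol and imported, and in plants each is encoded by several gene copies. Growing tissue needs many ribosomes, and their genes are often switched on together through short promoter elements, the telobox and the site II element.

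These elements were looked for in the promoters, since genes of ribosomes are often switched on through them. The window ran from 250 bases before to 50 bases after the annotated gene start, and both strands were searched. The telobox AAACCCTA occurred in 13 of 23 ribosomal protein promoters (56.5%, Wilson 95% interval 36.8 to 74.4%) and in 8 of the 17 others (47.1%), against 6.22% of all 27443 protein-coding promoters. The site II element, TGGGCC or TGGGCT, occurred in 17 of 23 (73.9%) and 10 of 17 (58.8%), against 21.7% of all promoters. Both elements together were found in 10 of 23 and 6 of 17 promoters, against 2.20% of all. The letters GAGAGA occurred in 11 of 23 and 6 of 17, against 29.2% of all. The reverse complement of TGGGCC can overlap it in a palindrome, as it does in RPS6B, so matches may share bases.

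Most telobox matches of these genes began just inside the transcribed stretch as annotated. Of its 14 matches in ribosomal protein promoters, 10 began at or after the annotated start, and of 11 matches in the other promoters 8 did. Among all promoters this held for 464 of 1841 matches (25.2%). The count depends on the annotated start, since the same telobox lies at -4 in AT1G33120 and at 24 in PGY2. These copied promoters are counted separately in the shares above. The following stretches of 30 bases from TAIR10.1 are shown because they belong to the genes described below and carry one or both elements, here in capitals, written 5′ to 3′ on the strand of the gene.
RPL5B telobox, chr5:15903271-15903300, plus strand: caagagaactcTAGGGTTTtgtcttataag
RPL5A telobox, chr3:9271416-9271445, minus strand: cacgaggagttttcTAGGGTTTtgtcttat
RPS6B site II palindrome, chr5:3260295-3260324, minus strand: caaatttaattaTGGGCCCAtaaaatgtag
RPS5A site II running into a telobox, chr3:3779540-3779569, minus strand: cattagAGCCCAAACCCTAaatttctcatc
AT1G33120 telobox, chr1:12010864-12010893, plus strand: tgaaagatattTAGGGTTTtttctcttgat
PGY2 telobox, chr1:12023238-12023267, plus strand: tgaaagatattTAGGGTTTtttctcttgat
NUC1 telobox, chr1:18098071-18098100, plus strand: tacatgttctaAAACCCTAagctgaaaaat
NUC2 telobox, chr3:6407897-6407926, minus strand: aatctcccgtggaaaaaagcaaAAACCCTA
FIB1 telobox, chr5:21294139-21294168, plus strand: taccaaagcatAAACCCTAaaagccctaaa
AT5G27120 telobox, chr5:9540806-9540835, plus strand: gatgcgttttaAAACCCTAggttacaaaaa
NRPC1 site II pair, chr5:24173103-24173132, plus strand: acatatcatagaTGGGCCaacaaAGCCCAa

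The stretches show how alike the copies are. AT1G33120 and PGY2, neighbouring copies of a protein of the large subunit, share a run of 272 bases in their promoter windows. The longest run shared by RPL5A and RPL5B was 18 bases and spans the telobox and letters on both sides of it, and between the nucleolin promoters it was 11 bases. NRPC1 had 3 site II matches and no telobox, NUC2 had 1 telobox and no site II match, and NRPA1 and NRPA2 had neither element in this window.

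Genes with both elements stood a little higher in *ubp5* across the whole table. Over the 397 tested protein-coding genes with a telobox and a site II element the median log2 fold change was 0.12, and 64.0% were above 0. It was 0.02 over 445 genes with a telobox only, -0.01 over 3754 with site II only and -0.02 over 10758 with neither. The genes with both elements include 16 of the 40 described here and 24 further cytosolic ribosomal protein genes with a median of 0.24. Over the other 357 the median was 0.08, and 59.9% were above 0. The list of further ribosomal protein genes is not complete, so these 357 may still hold some of them. Within the 40, the median was 0.26 for those 16, 0.27 for 5 with a telobox only, 0.20 for 11 with site II only and 0.20 for 8 with neither, so the genes with and without the elements stood at similar values.

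The 40S subunit genes stood above the wild type without passing. None of the 8 passed in edgeR, although 4 had an unadjusted p under 0.05 and 1, RPS6B, passed in DESeq2. Over all genes tested, 11.7% had such a p as higher and 13.9% as lower, and 7.87% had every *ubp5* library above every Col-0 library. These shares apply to the counts given for the other roles as well. Their log2 fold changes ran from 0.20 to 0.35 with a median of 0.28. RPS6, the protein that S6 kinase phosphorylates downstream of TOR, is encoded by RPS6A (AT4G31700) and RPS6B (AT5G10360). RPS6B measured 274, 299, 294 and 314 CPM in Col-0 replicates 1 to 4 and 341, 384, 355 and 392 CPM in *ubp5* replicates 1 to 4, the order used for all genes. Every *ubp5* library was above every Col-0 library, with a log2 fold change of 0.32 (SE 0.10, adjusted p = 0.0554).

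RPS5B (AT2G37270), a copy of the small subunit protein S5, was also higher in every *ubp5* library. It measured 121, 133, 111 and 146 CPM in Col-0 against 168, 152, 159 and 173 CPM in *ubp5*. The lowest *ubp5* library exceeded the highest Col-0 library by little, and the log2 fold change was 0.35 (SE 0.11, adjusted p = 0.0594). Its copy RPS5A (AT3G11940), needed for normal embryo development, had a log2 fold change of 0.22 (SE 0.12, adjusted p = 0.273) with overlapping groups. RPS6A, at 0.34 (SE 0.12, adjusted p = 0.0862), was the third 40S gene whose groups did not overlap. The 3 copies of S18, RPS18A (AT1G22780), AT1G34030 and RPS18C (AT4G09800), together with RPS13A (AT4G00100) had log2 fold changes of 0.20 to 0.28.

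RPL5B was the one gene of the 23 that rose in edgeR. In DESeq2 RPS6B passed besides it. RPL5 binds the small rRNA of the large subunit and carries it into the assembling particle. RPL5B measured 169, 216, 186 and 221 CPM in Col-0 against 250, 276, 292 and 253 CPM in *ubp5*. All 4 *ubp5* libraries lay above all 4 Col-0 libraries, a 1.35-fold difference of the means with a log2 fold change of 0.43 (SE 0.11, adjusted p = 0.0292). The adjusted p was 0.0686 without Col-0 replicate 3, 0.0680 without *ubp5* replicate 2, 0.0872 without *ubp5* replicate 3 and 0.0541 without *ubp5* replicate 4. Its copy RPL5A (AT3G25520) measured 274, 316, 307 and 368 CPM in Col-0 against 352, 415, 337 and 361 CPM in *ubp5*. These groups overlapped, with a log2 fold change of 0.21 (SE 0.12, adjusted p = 0.278).

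The other 14 genes of the 60S subunit had log2 fold changes of 0.15 to 0.36 and did not pass. AT1G33120, of the family that also holds PGY2 (AT1G33140), measured 181, 179, 157 and 186 CPM in Col-0 against 215, 227, 209 and 210 CPM in *ubp5*. Its groups did not overlap, and its log2 fold change was 0.30 (SE 0.10, adjusted p = 0.0707). AT1G70600, of the L18e/L15 superfamily, stood at 0.36 (SE 0.12, adjusted p = 0.0709). PGY1 (AT2G27530) and PGY2, whose mutants have altered leaf shape, were at 0.20 and 0.26 (SE 0.11 each). RPL23AA (AT2G39460) and RPL23AB (AT3G55280), RPL24B (AT3G53020) and AT1G01100, an acidic stalk protein gene, were at 0.30, 0.29, 0.27 and 0.29. AT3G09630, the other L4 gene, and RPL10A (AT1G14320) were at 0.22 and 0.21. The lowest values were those of AT5G02870, an L4 gene, at 0.15 (SE 0.11), of RPL3A (AT1G43170), which contributes to the catalytic centre, at 0.18 (SE 0.10), and of AT2G19730, an L28e gene, at 0.19 (SE 0.10).

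**Figure D1:**
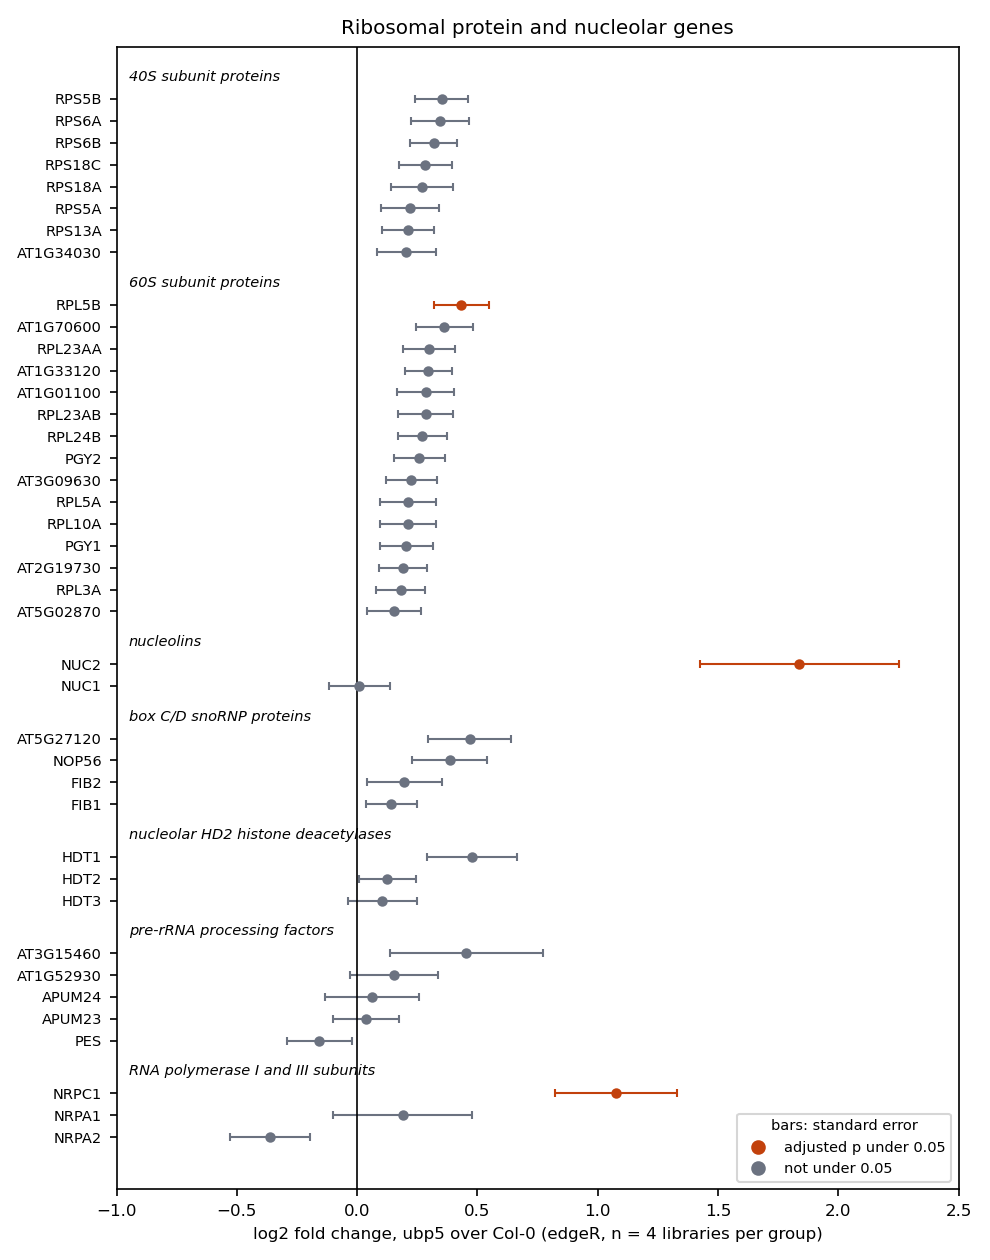
Log2 fold change of *ubp5* over Col-0 (x axis) for the 40 genes by role (y axis), with points for the estimate and bars for the SE, 4 libraries per group. All 23 ribosomal protein genes lie between 0.15 and 0.43, while NUC2 at 1.84 and NRPC1 at 1.08 stand far to the right and NRPA2 at -0.36 lies to the left of 0.

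Read against the whole table, the ribosomal protein genes differ more in consistency than in size. In all 15649 genes tested, 4.59% passed as higher and 6.34% as lower in *ubp5*. Of the 23 ribosomal protein genes 1 passed as higher (12 at an unadjusted p under 0.05) and 0 as lower in edgeR (0 at an unadjusted p under 0.05 and 0 in DESeq2), a share close to that background. An unadjusted p under 0.05 was reached by 12 of the 23 as higher, where 11.7% of all genes reached it as higher and 13.9% as lower. The groups did not overlap, with *ubp5* above, in 10 of the 23, against 7.87% of all genes with every *ubp5* library above and 9.37% with every *ubp5* library below. The log2 fold change was above 0 in 23 of 23, against 48.4% of all genes, whose median was -0.01. The genes share libraries and scaling and are not independent of each other. Their Col-0 means were 76.1 to 400 CPM and their SEs 0.10 to 0.13. The shares over all genes are not matched for level or SE, so the 2 are not like for like. The highest upper bound of an approximate 95% interval among the 23 was 0.66, so each interval excludes a 2-fold rise.

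The libraries were not equally placed. Relative to the Col-0 mean of each gene, the median ratio over the 23 genes was 0.895, 1.05, 0.943 and 1.11 in Col-0 replicates 1 to 4. It was 1.13, 1.29, 1.16 and 1.21 in *ubp5* replicates 1 to 4. All 23 genes were above their Col-0 mean in *ubp5* replicates 1 and 2, 21 were in replicate 3 and 22 in replicate 4. The same held for 22 genes in Col-0 replicate 4, for 17 in replicate 2 and for 3 and 2 genes in Col-0 replicates 1 and 3. The gap between the highest Col-0 library and the lowest *ubp5* library was thus small beside the spread within Col-0.

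**Figure D2:**
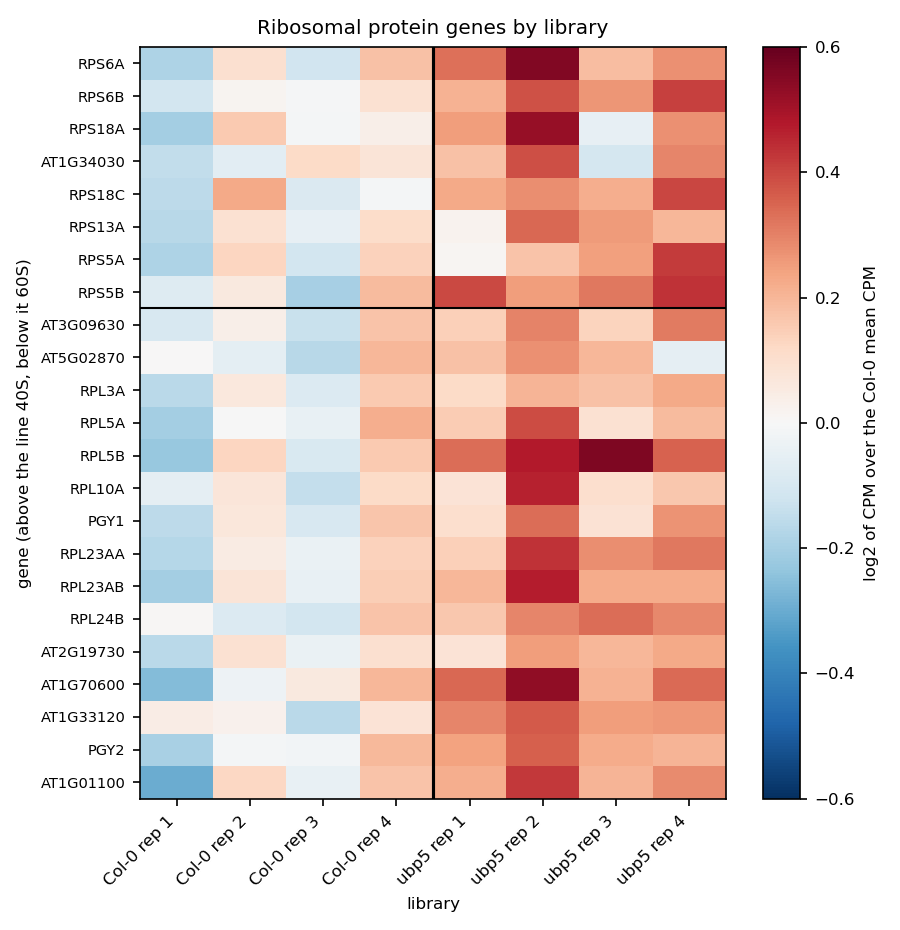
Log2 of each library's CPM over the gene's Col-0 mean CPM (colour, from -0.6 in blue to 0.6 in red) for the 23 ribosomal protein genes (rows) in the 8 libraries (columns). The *ubp5* columns are red in nearly every row, most deeply in replicate 2, and Col-0 replicate 4 is pale red in most rows.

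By the wording of its product descriptions, the annotation gave 79 further genes of 40S and 60S ribosomal protein families, of which 67 were tested. Whether each of them encodes a protein of the ribosome was not checked. Their median log2 fold change was 0.23, 61 were above 0, 10 passed as higher and 2 as lower, against 4.59% and 6.34% of all genes. Whether they differ from the 23 was not tested. AT4G02230, of the L19e family, measured 123, 127, 140 and 138 CPM in Col-0 against 170, 180, 179 and 191 CPM in *ubp5*. These groups were well apart, and the gene rose by a log2 fold change of 0.44 (SE 0.10, adjusted p = 0.0115). AT5G28060, of the S24e family, measured 214, 246, 237 and 234 CPM in Col-0 against 284, 317, 313 and 302 CPM in *ubp5* and rose by 0.38 on the log2 scale (SE 0.10, adjusted p = 0.0233). AT2G40590, of the S26e family, measured 29.6, 35.7, 30.1 and 33.4 CPM in Col-0 against 36.2, 54.2, 46.5 and 51.6 CPM in *ubp5* and rose by 0.55 (SE 0.14, adjusted p = 0.0272). In both the groups did not overlap, although *ubp5* replicate 1 was close to Col-0 in AT2G40590. Both genes that fell belong to the L18ae family and neither passed in DESeq2. RPL18AA (AT1G29970), whose 3' end is overlapped on the same strand by AT1G29965 (mean 0.262 CPM in Col-0, 0.272 CPM in *ubp5*), measured 56.2, 48.4, 42.5 and 45.2 CPM in Col-0 against 35.7, 28.3, 37.3 and 32.1 CPM in *ubp5* and decreased by 0.54 on the log2 scale (SE 0.14, adjusted p = 0.0242). AT1G54217 measured 4.93, 8.33, 7.15 and 7.36 CPM in Col-0 against 1.53, 1.91, 5.64 and 3.17 CPM in *ubp5*, with overlap, and decreased by 1.27 (SE 0.36, adjusted p = 0.0422). The number that passed as higher was 8, 5, 4 and 9 without Col-0 replicates 1 to 4 and 4, 2, 4 and 2 without *ubp5* replicates 1 to 4. The number that passed as lower was 1 without Col-0 replicate 2 or 3 and 0 without *ubp5* replicate 2 or 4. Ribosomal proteins of the plastid (11 tested) and of mitochondria (6 tested) had medians of -0.07 and 0.08. None of them passed in edgeR or DESeq2, with an unadjusted p under 0.05 in 2 plastid genes, both lower, and in 1 mitochondrial gene, higher.

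Summed over the 23 and the 79 genes, cytosolic ribosomal protein genes took 1.51 ± 0.127% of the counts in Col-0 against 1.80 ± 0.133% in *ubp5* (SD, n = 4). The single libraries gave 1.39, 1.56, 1.41 and 1.66% in Col-0 against 1.68, 1.98, 1.72 and 1.82% in *ubp5*. The lowest *ubp5* library was just above the highest Col-0 library. With only nuclear genes in the total, the shares were 1.57 ± 0.145% and 1.90 ± 0.133%.

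Markers of other cells and the organelle transcripts were measured beside them. Of 5 green leaf cell markers, all tested, 4 fell (RBCS1A, RBCS3B, CAB2 and RCA), against 6.34% of all genes. The median log2 fold change of the 5 was -0.49. With a library left out, 1 to 5 of them fell: 5 without Col-0 replicate 1, 1 without *ubp5* replicate 4 and 2 (CAB2 and RBCS3B) without any of the others. Their summed level was 26921 to 37409 CPM in Col-0 against 21762 to 23208 CPM in *ubp5*. Transcripts of the plastid and mitochondrial genomes took 2.87 to 5.30% of the counts in Col-0 against 4.86 to 5.86% in *ubp5*. Of 13 markers of dividing cells, 11 were tested and 1, CDKB2;2, fell. At an unadjusted p under 0.05, 3 were higher, against 11.7% of all genes. In 3 every *ubp5* library was above every Col-0 library, against 7.87% of all genes. CDKB2;2 did not pass in DESeq2 (adjusted p = 0.0906) and passed in 1 of 8 fits without a library, the one without Col-0 replicate 4. Their summed level was 86.9 to 134 CPM in Col-0 against 95.8 to 126 CPM in *ubp5*, and their median log2 fold change was 0.02. Of 9 root markers, 6 were tested and none passed in edgeR or DESeq2 (1 higher and 1 lower at an unadjusted p under 0.05), with summed levels of 103 to 257 CPM in Col-0 against 100.5 to 139.8 CPM in *ubp5*. Without the root marker AT1G62510, which was high in Col-0 replicate 3, the root sums were 68.8 to 106 CPM in Col-0 against 75.6 to 103 CPM in *ubp5*. The part of the leaf markers and the organelle transcripts in the ribosomal protein result was not tested.

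The nucleolin genes differed from each other. Nucleolin is an RNA-binding protein that acts in rDNA chromatin and in the first steps of pre-rRNA processing, and in Arabidopsis NUC1 is the main gene and NUC2 is normally little expressed. NUC2 had 4, 3, 2 and 10 counts in Col-0 against 12, 23, 8 and 10 counts in *ubp5*, which is 1.52, 1.19, 0.752 and 3.34 CPM against 6.12, 8.79, 5.64 and 4.53 CPM. Every *ubp5* library was above every Col-0 library once depth was taken into account. NUC2 passed the filter on low counts only through *ubp5*, since 0 of the 4 Col-0 libraries and all 4 *ubp5* libraries reached its cutoff of 3.87 CPM, so a gene seen at this depth had to differ in this direction. With that limit, NUC2 rose by a log2 fold change of 1.84 (SE 0.41, adjusted p = 0.0134), or 3.68-fold in the means. With the counts pooled, 19 against 53, the ratio was 3.71 with an exact 95% interval of 2.16 to 6.63 that covers counting error only. Without *ubp5* replicate 2, the library with the most NUC2 counts, the adjusted p was 0.0585.

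For NUC1 (AT1G48920) no difference was detected. It measured 166, 124, 159 and 194 CPM in Col-0 against 159, 161, 163 and 164 CPM in *ubp5*. The 4 *ubp5* libraries lay within the Col-0 range and close together, with a log2 fold change of 0.01 (SE 0.13, approximate 95% interval -0.24 to 0.26, adjusted p = 0.981). NUC2 made up 1.01 ± 0.508% of the tags of the pair in Col-0 against 3.72 ± 1.05% in *ubp5* (SD, n = 4), and this share was higher in every *ubp5* library. An exact two-sided permutation test on it gave p = 0.0286, the smallest that 4 against 4 libraries allow, and 0.343 after Benjamini-Hochberg adjustment over the 12 pairs of copies among the 40. This test was added after the values were seen. NUC2 had passed the filter on low counts only through *ubp5*, and groups without overlap fix this p-value, so the test adds no support.

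The core proteins of the box C/D snoRNP had estimates above 0 and none passed. None of the 4 did so in edgeR or DESeq2, and 2 had an unadjusted p under 0.05. AT5G27120, a NOP58 gene, measured 24.7, 26.2, 43.6 and 37.8 CPM in Col-0 against 44.4, 46.2, 47.9 and 45.3 CPM in *ubp5*. The groups did not overlap, but 2 Col-0 libraries stood much nearer to *ubp5* than the other two, and the log2 fold change of 0.47 (SE 0.17) had an adjusted p of 0.108. NOP56 (AT1G56110) measured 55.0, 38.5, 53.8 and 64.9 CPM in Col-0 against 72.5, 73.7, 55.6 and 74.2 CPM in *ubp5*. Its groups overlapped through *ubp5* replicate 3, with a log2 fold change of 0.38 (SE 0.16, adjusted p = 0.143). FIB1 (AT5G52470) and FIB2 (AT4G25630), the methyltransferase of the particle, were at 0.14 (SE 0.11) and 0.20 (SE 0.16). Of 9 further snoRNP and pseudouridylation genes 8 were tested. All 8 were above 0, with a median of 0.28, and none passed in edgeR or DESeq2 (3 at an unadjusted p under 0.05).

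The HD2 histone deacetylases are plant-specific, lie in the nucleolus and help to silence rRNA gene copies. None of the 3 passed in edgeR or DESeq2, and 1 had an unadjusted p under 0.05. HDT1 (AT3G44750) measured 23.2, 28.97, 28.2 and 42.1 CPM in Col-0 against 37.2, 51.6, 35.9 and 44.8 CPM in *ubp5*. The groups overlapped only through Col-0 replicate 4, and the log2 fold change was 0.48 (SE 0.19, adjusted p = 0.128). HDT2 (AT5G22650) measured 93.0, 78.2, 81.3 and 98.7 CPM in Col-0 against 99.0, 101.6, 80.3 and 100.9 CPM in *ubp5*, which is 0.13 (SE 0.12) on the log2 scale. HDT3 (AT5G03740), at 0.10 (SE 0.14), also overlapped.

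Factors that process pre-rRNA showed no gene past the test. None of the 5 passed in edgeR or DESeq2, and none had an unadjusted p under 0.05. AT3G15460, a gene for BRX1, a factor of the early large subunit, measured 7.21, 3.18, 5.27 and 8.36 CPM in Col-0 against 8.16, 6.88, 12.7 and 6.79 CPM in *ubp5*. The groups overlapped widely, with a log2 fold change of 0.45 (SE 0.32, adjusted p = 0.408). PES (AT5G14520), the pescadillo protein that works beside it, measured 32.3, 33.7, 31.6 and 38.1 CPM in Col-0 against 25.5, 31.7, 35.2 and 29.9 CPM in *ubp5*. It was one of the 2 genes of the 40 with an estimate below 0, at -0.16 (SE 0.13, adjusted p = 0.509). The other BRX1 gene AT1G52930 and the Pumilio proteins APUM23 (AT1G72320) and APUM24 (AT3G16810), which bind pre-rRNA, were at 0.15, 0.04 and 0.06.

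Of the polymerase subunits 1, NRPC1, passed. NRPC1, the catalytic subunit of RNA polymerase III, had 14, 16, 21 and 20 counts in Col-0 against 18, 48, 23 and 26 counts in *ubp5*. Scaled for depth these were 5.31, 6.35, 7.90 and 6.69 CPM against 9.18, 18.3, 16.2 and 11.8 CPM, with no overlap and a wide spread in *ubp5*. NRPC1 rose by a log2 fold change of 1.08 (SE 0.25, adjusted p = 0.0176), or 2.11-fold in the means, and the ratio of the pooled counts was 2.15 with an exact 95% interval of 1.59 to 2.94. The adjusted p was 0.0697 without *ubp5* replicate 2 and 0.0509 without *ubp5* replicate 3, and without Col-0 replicate 1 it passed but fell short of 2-fold. NRPA1 (AT3G57660), the catalytic subunit of RNA polymerase I, was at 0.19 (SE 0.29, adjusted p = 0.739).

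NRPA2 (AT1G29940), the next largest subunit of RNA polymerase I, had the lowest value of all 40. It measured 22.0, 15.9, 20.7 and 23.1 CPM in Col-0 against 15.8, 17.6, 15.5 and 14.5 CPM in *ubp5*. The groups overlapped through Col-0 replicate 2, and the log2 fold change of -0.36 (SE 0.16) did not pass (adjusted p = 0.187). On the opposite strand NRPA2 overlaps AT1G29930, an abundant transcript of 13125 ± 3266 CPM in Col-0 against 10052 ± 820.3 CPM in *ubp5* (SD, n = 4), with a log2 fold change of -0.38 (SE 0.17, adjusted p = 0.177). The counts are of the sense strand, and the part of this neighbour in the NRPA2 value was not tested.

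**Figure D3:**
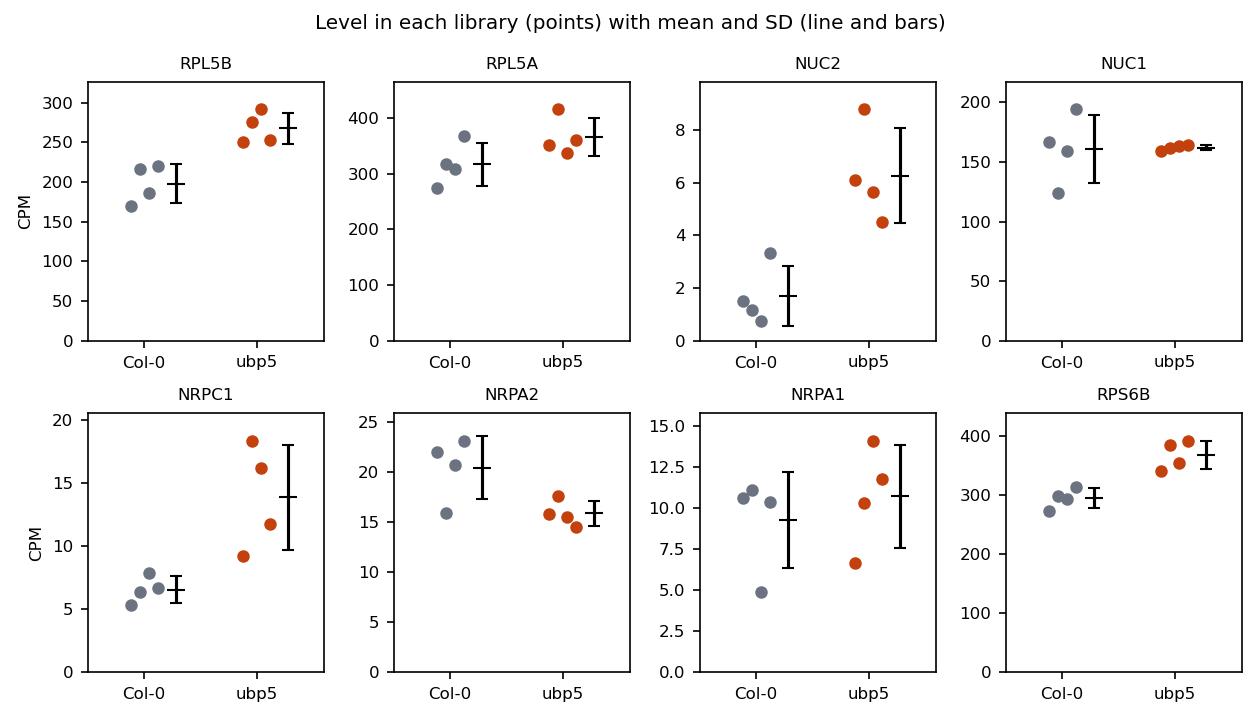
CPM (y axes, each from 0) of 8 genes in the Col-0 and *ubp5* libraries, with points for libraries and a line with bars for the mean and SD (n = 4). RPL5B, RPS6B, NUC2 and NRPC1 have no overlap between the groups, NUC1 lies within the Col-0 range in *ubp5*, and NRPA2 is lower in *ubp5* apart from Col-0 replicate 2.

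Counting all 40, 3 passed as higher and 0 as lower in edgeR (17 and 1 at an unadjusted p under 0.05, 4 and 0 in DESeq2), and 2 were called, NUC2 and NRPC1. Of all genes, 4.59% passed as higher and 6.34% as lower, and 1.91% were called higher and 2.93% lower. An unadjusted p under 0.05 was reached by 11.7% of all genes as higher and 13.9% as lower. As described above, NUC2 passed the filter on low counts only through *ubp5*. Without *ubp5* replicate 2 none of the 40 passed in edgeR, 12 were higher and 1 lower at an unadjusted p under 0.05, and the median of the 40 moved from 0.22 to 0.20. Without Col-0 replicate 4 there were 6 that passed, and without *ubp5* replicate 3 only NUC2.

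Further factors of ribosome making were taken from 4 lists. With 45 genes tested, 0 passed as higher and 4 as lower in edgeR (3 and 6 at an unadjusted p under 0.05, 0 and 3 in DESeq2), against 4.59% and 6.34% of all genes, and the median was 0.05. RPAC43 (AT1G60620), a subunit shared by polymerases I and III, measured 11.0, 11.5, 8.28 and 9.03 CPM in Col-0 against 3.06, 1.91, 1.41 and 2.26 CPM in *ubp5*. The groups were far apart, and the gene decreased by 2.15 on the log2 scale (SE 0.29, adjusted p = 0.000593). Its copy RPAC42 (AT1G60850) was at -0.29 (SE 0.25, adjusted p = 0.514), with 12.5, 11.9, 10.2 and 19.4 CPM in Col-0 against 7.65, 10.7, 12.7 and 13.6 CPM in *ubp5*.

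LSG1-1 (AT2G27200) encodes a GTPase of late large-subunit maturation in the cytoplasm. It measured 19.0, 13.9, 20.3 and 22.1 CPM in Col-0 against 7.65, 10.3, 7.04 and 6.34 CPM in *ubp5*, without overlap, and decreased by 1.24 on the log2 scale (SE 0.22, adjusted p = 0.00347). Its copy LSG1-2 (AT1G08410) was at 0.14 (SE 0.22, adjusted p = 0.752). REIL2 (AT2G24500), a zinc finger protein of the same cytoplasmic stage, measured 48.6, 34.5, 43.6 and 50.2 CPM in Col-0 against 26.5, 24.8, 27.5 and 21.7 CPM in *ubp5* and decreased by 0.82 on the log2 scale (SE 0.15, adjusted p = 0.00404). REIL2 overlaps a gene on its own strand and 73.3% of the 55-base reads in its 3' end have a single position in the genome. REIL1 (AT4G31420) was at -0.26 (SE 0.13, adjusted p = 0.223). RPAC43, LSG1-1 and REIL2 passed in all 8 fits that left out a library. RAPTOR1 (AT3G08850), the TOR partner that recruits substrates, measured 50.1, 44.8, 44.4 and 41.5 CPM in Col-0 against 36.7, 31.7, 35.2 and 33.0 CPM in *ubp5*. It decreased by 0.41 on the log2 scale (SE 0.12, adjusted p = 0.0427) but passed in 1 of those 8 fits and had an adjusted p of 0.163 in DESeq2.

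Within families of gene copies the shares of tags overlapped between the groups in most pairs. The 12 pairs among the 40 were compared, and 3 pairs of other factors were added after their values were seen. In 11 of the 12 the groups overlapped, the exception being the nucleolins. RPL5A gave 61.5 ± 1.44% of the RPL5 tags in Col-0 against 57.7 ± 2.82% in *ubp5* (SD, n = 4; exact permutation p = 0.0571, adjusted 0.343). RPS6A gave 44.3 ± 1.73% and 44.8 ± 2.59%, RPL23AA gave 82.2 ± 0.249% and 82.4 ± 0.730%, and FIB1 gave 77.9 ± 1.958% and 77.4 ± 2.96%. LSG1-1 gave 60.2 ± 7.42% of its pair in Col-0 against 36.4 ± 3.45% in *ubp5*, and RPAC43 gave 43.1 ± 7.79% and 17.0 ± 8.03%. These pairs were chosen for their difference, so no test is given. Tags of copies could be told apart, since in 37 of the 40 genes every 55-base read of the last 500 bases of the transcripts has a single position in the genome, and in the other 3 (RPL5B, PGY2 and NUC1) at least 91.5% do.

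**Figure D4:**
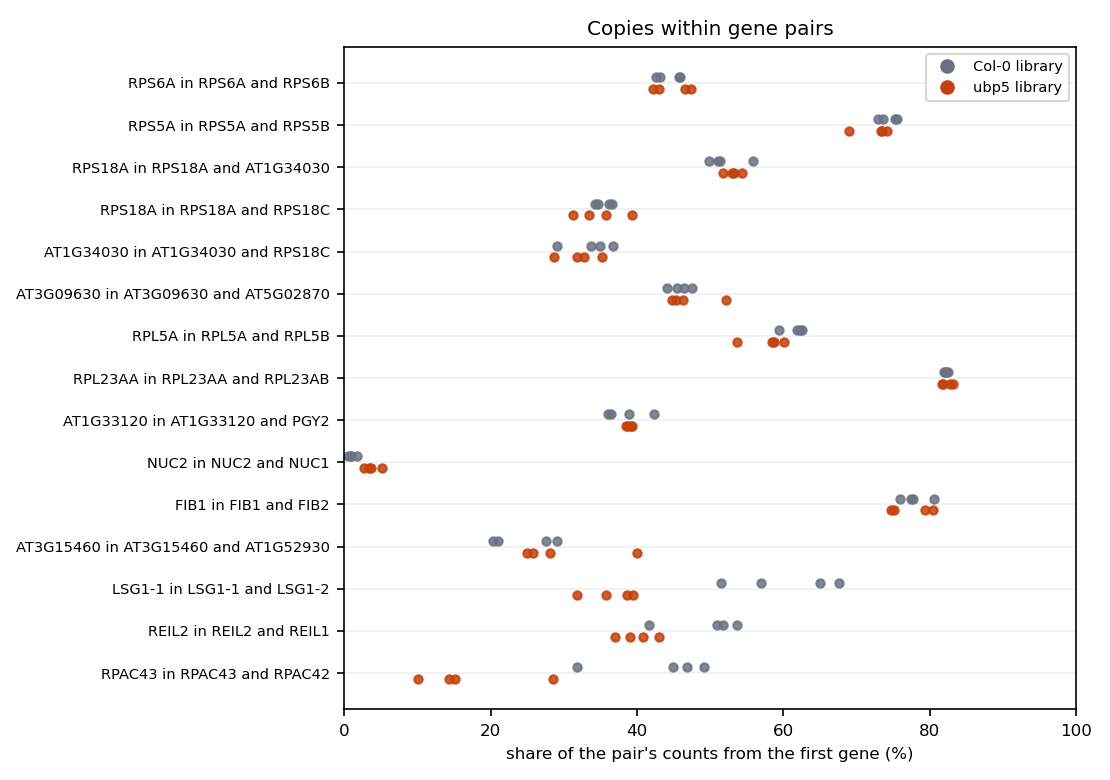
Share of a pair's counts that came from the first gene of the pair (x axis, in %) for 15 pairs of gene copies (y axis), with a point for each Col-0 and *ubp5* library. Points of both groups overlap in most pairs, whereas NUC2 is higher in *ubp5* (3.72 against 1.01%), and LSG1-1 and RPAC43 are lower.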

How the data were processed

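RNA-seq was carried out on 4 Col-0 and 4 *ubp5* seedling libraries. Per the labels and the paper, the authors demultiplexed and trimmed reads with BRBseqTools, mapped them with STAR 2.7.8a to TAIR10 with Araport11, kept reads with 1 position, and deposited raw counts, in which each gene is given its number of different molecular tags in sense orientation. Replicates were not pooled. Reads common to near-identical copies are lost in this way.

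Counts were tested with edgeR 4.0.16 in R 4.3.3 (TMM, filterByExpr defaults, quasi-likelihood test, Benjamini-Hochberg adjustment over 15649 genes), without covariates. The SE is the absolute log2 fold change over the square root of F. DESeq2 1.42.0, other scalings, filters and thresholds, the replicate number as a block and fits without each library were the alternatives. The procedure was tested on simulated counts. Promoters were read from TAIR10.1 with Python 3.11.15. Of the 37336 identifiers 37051 matched its annotation. The files hold no coordinates.

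The 40 genes, the other lists and the rule for named genes were chosen with earlier results of these data known. The rule gives library values for each gene of the 40 that passed and for the 2 with the smallest p in each role, up to 5 passing genes of each other list, and 3 passing genes in each direction of the wider ribosomal list. That list follows annotation wording, is not complete and may hold genes for proteins outside the ribosome. RPL5A, RPAC42, LSG1-2 and REIL1 were added as copies. Intervals on counts cover counting error only, with 3 counts as the floor for a transcript. Replicate numbers did not pair the samples.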

Additional observations from a re-analysis of the deposited data

Results flagged for a closer look

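In groups of 4 libraries, a value was marked when its gap to the nearest of the others took up more of the group's range than the 95% critical value of Dixon's test allows. Chance marks about 1 in 20 groups, and 10 of the 214 groups looked at were marked.

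Among the 40 genes, *ubp5* replicate 3 was low for NOP56 (55.6 CPM, the others 72.5 to 74.2) and for HDT2 (80.3 CPM, the others 99.0 to 101.6). *ubp5* replicate 2 was high for RPL23AB (105.4 CPM, the others 87.3 to 88.8), and *ubp5* replicate 1 was low for APUM24 (10.7 CPM, the others 16.9 to 18.1). Col-0 replicate 3 was low for NRPA1 (4.89 CPM, the others 10.4 to 11.1).

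In the other lists, PCN was low in *ubp5* replicate 1 (23.0 CPM, the others 31.0 to 32.6), REIL1 was low in Col-0 replicate 3 (37.6 CPM, the others 46.7 to 48.4) and AT3G05060 was high in Col-0 replicate 4 (70.9 CPM, the others 48.6 to 50.8). CDKB2;1 was high in *ubp5* replicate 4 (14.03 CPM, the others 7.64 to 8.45). The root marker AT1G62510 was high in Col-0 replicate 3 (188.5 CPM, the others 21.6 to 45.6).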

How the results depend on the processing

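The log2 fold change of all 23 ribosomal protein genes stayed above 0 in each of the 16 other fits, and their median ranged from 0.20 to 0.29. The median of the 40 ranged from 0.20 to 0.28 with a library left out. The count of the 40 that passed as higher was 5 with DESeq2's size factors in edgeR, 0 at an adjusted p under 0.01, and 0 to 6 with a library left out. The count called was 1 with a mean of at least 10 counts, a filter that drops NUC2, and 0 to 2 with a library left out (1 without Col-0 replicate 1, 0 without *ubp5* replicate 2 and 1 without *ubp5* replicate 3). NUC1, HDT3, APUM24 and NRPA1, none of which passed, each crossed 0 in 1 fit without a library.

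The replicate number as a block gave 2 of the 40 as higher, since RPL5B had an adjusted p of 0.0527 (0.0292 without the block). It gave 3 further ribosomal protein genes as higher and 1 as lower, and 1 gene of the other lists as higher. Same-numbered libraries did not deviate together (r from -0.12 to 0.03 over genes), so the numbers are only shared names.

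Of further ribosomal protein genes, 2 to 9 passed as higher and 0 to 2 as lower with a library left out, and 0 either way at an adjusted p under 0.01. DESeq2 gave 0 lower. In the other lists, 1 gene passed as higher with DESeq2's size factors, with no filter and without organelle genes, and 0 to 4 with a library left out. In the whole table, 465 to 1008 genes passed as higher and 636 to 1058 as lower with a library left out, and 268 and 391 at an adjusted p under 0.01.

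In the 250 bases before the start alone, the telobox was found in 8.70% of ribosomal protein promoters (4.49% of all promoters), its longer form AAACCCTAA in 4.35% (26.1% in the full window) and both elements in 4.35%. In the other 17 promoters the telobox was found in 17.6% (47.1% in the full window), the longer form in 5.88% (23.5%) and both elements in 17.6% (35.3%). The shorter window leaves out the bases after the start, where most matches lie. Depth limits NUC2 (2 to 23 counts per library) and AT3G15460 (8 to 25 counts, SE 0.32) among others.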

Other observations

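Among ribosomal protein genes left untested by the filter, AT3G28500 and AT5G40040, of the 60S acidic ribosomal protein family, had few counts in Col-0 and more in *ubp5*. AT3G28500 had 3, 3, 2 and 1 counts in Col-0 and 8, 11, 4 and 11 in *ubp5*. AT5G40040 had 0, 0, 1 and 0 counts in Col-0 and 4, 8, 1 and 3 in *ubp5*. In Col-0 all these counts are at or below the floor of 3 counts. Both were chosen for their difference after their values were seen, from 12 genes of the wider ribosomal list that were left untested, so no test is given.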
